A study of Mus musculus with 27 samples.

Results

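The genes described here are the cytosolic ribosomal protein genes of the mouse, as they appear in a table of histone acetylation. The cells were Kupffer cells, macrophages that live in the blood vessels of the liver. They were chosen by name from the gene column of that table. A symbol had to begin with Rpl or Rps and a digit, or with Rplp and 0 to 2, and the Rps6k kinases and symbols ending in -ps were left out. The rule gave 84 genes of the 16038 named genes in the table, with 236 of its 70300 windows. Of the 84, 72 encode core ribosomal proteins, out of 76 core genes on the list that was matched to the table. Another 6 are paralogs or copies (Rpl36al, Rpl22l1, Rps27l, Rpl7l1, Rpl10l and Rpl37rt), 5 are pseudogenes (Rps4l, Rpl14-ps1, Rpl34-ps1, Rplp2-ps1 and Rps15a-ps6), and Rps19bp1 encodes a protein that binds Rps19 and is not part of the ribosome. The 4 core genes without a window under their own symbol were Rpl4, Rps2, Rps25 and Rps27. Windows within 1000 bp of these 4 genes carried the names of neighbours: Snapc5 and Zwilch, Snhg9 and Snora64, Trappc4, and Rab13.

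The cells were sorted as F4/80-Hi and Tim4-Pos, which limits them to Kupffer cells that carry Tim4, after a digestion with flavopiridol. The mice were C57BL/6J and ate a control diet or a NASH diet; the latter models non-alcoholic steatohepatitis, a fatty and inflamed liver. H3K27ac, an acetylated histone residue found at active promoters and enhancers, was measured by ChIP-seq in 2 libraries per diet. LXR (a nuclear receptor that senses oxysterols), ATF3 (a stress-induced transcription factor) and P300 (an acetyltransferase that places H3K27ac) were each profiled in 2 libraries per diet and deposited as 1 list of reproducible sites per diet. Strain and sort were shared by both diets. The labels used here do not tie a library to a number of mice, so a p-value reflects only how far these libraries spread, and that spread may be technical. A change in the acetylation of each cell and a change in which cells passed the sort cannot be told apart in such bulk libraries.

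Ribosomal proteins clothe the ribosomal RNA of the small (Rps) and large (Rpl) subunits, and cells need them in nearly equal amounts. Their genes are scattered over the chromosomes, are transcribed in nearly all cells, and mostly start within a run of pyrimidines. That run becomes the 5′ end of the mRNA and places its translation under growth signals such as mTOR. Promoters of this family are known for motifs of ETS factors, YY1, SP and KLF factors and ZBTB33-like proteins, and for a lack of a regular TATA box. Each macrophage makes ribosomes at a rate that follows its growth and activation.

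Depth differed between libraries. The control libraries held 9468035 and 22615879 tags and the NASH libraries 18749728 and 19231109, of which 7.91% to 9.60% lay in windows. Values below are normalised tags, meaning tags that the authors set to a total of 10000000 for every library, and 3 tags correspond to 3.17, 1.33, 1.60 and 1.56 normalised tags in control 1, control 2, NASH 1 and NASH 2. Markers of the labelled cell type were present in all 4 libraries: the 6 Kupffer cell markers summed to 1501 and 1456 normalised tags on the control diet and to 979 and 905 on the NASH diet. Timd4, the gene for Tim4, had 257 and 256 against 21.31 and 26. The 3 monocyte markers summed to 305, 306, 340 and 361, the 3 of 5 hepatocyte markers in the table to 22.2, 23.9, 27.7 and 30.2, and the 4 endothelial markers to 119, 73.0, 68.8 and 59.8. The 2 of 3 T cell markers in the table summed to 3.17, 3.98, 13.3 and 26.5, the 1 B cell marker to 2.67 to 3.54, the 1 cholangiocyte marker to 9.36 to 16.9 and the 1 neutrophil marker to at most 1.77, while no stellate cell marker was in the table. None of the markers in the table was at 0 in all libraries. The part of these marker differences in the results below was not tested.

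Acetylation at ribosomal protein genes was above that of the typical gene in each library. The median over the 84 genes was 63.2, 59.0, 55.7 and 59.2 normalised tags per kb of window in control 1, control 2, NASH 1 and NASH 2, against 35.4, 27.9, 25.8 and 23.1 over all 16038 named genes. By the mean of the 4 libraries, 57 of the 84 lay above the median of all genes. The 2 sets differ in their windows, as 53.8% of the windows of these genes lay within 1000 bp of a start, against 29.5% of all windows. In windows within 1000 bp alone, the median of that mean was 89.5 per kb over 78 genes, against 52.1 over 11793. As a share of the tags in windows, the 84 genes summed to 0.390%, 0.410%, 0.426% and 0.406%. The share was highest in NASH 1, and the value of NASH 2 lay between those of the control libraries.

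**Figure D1:**
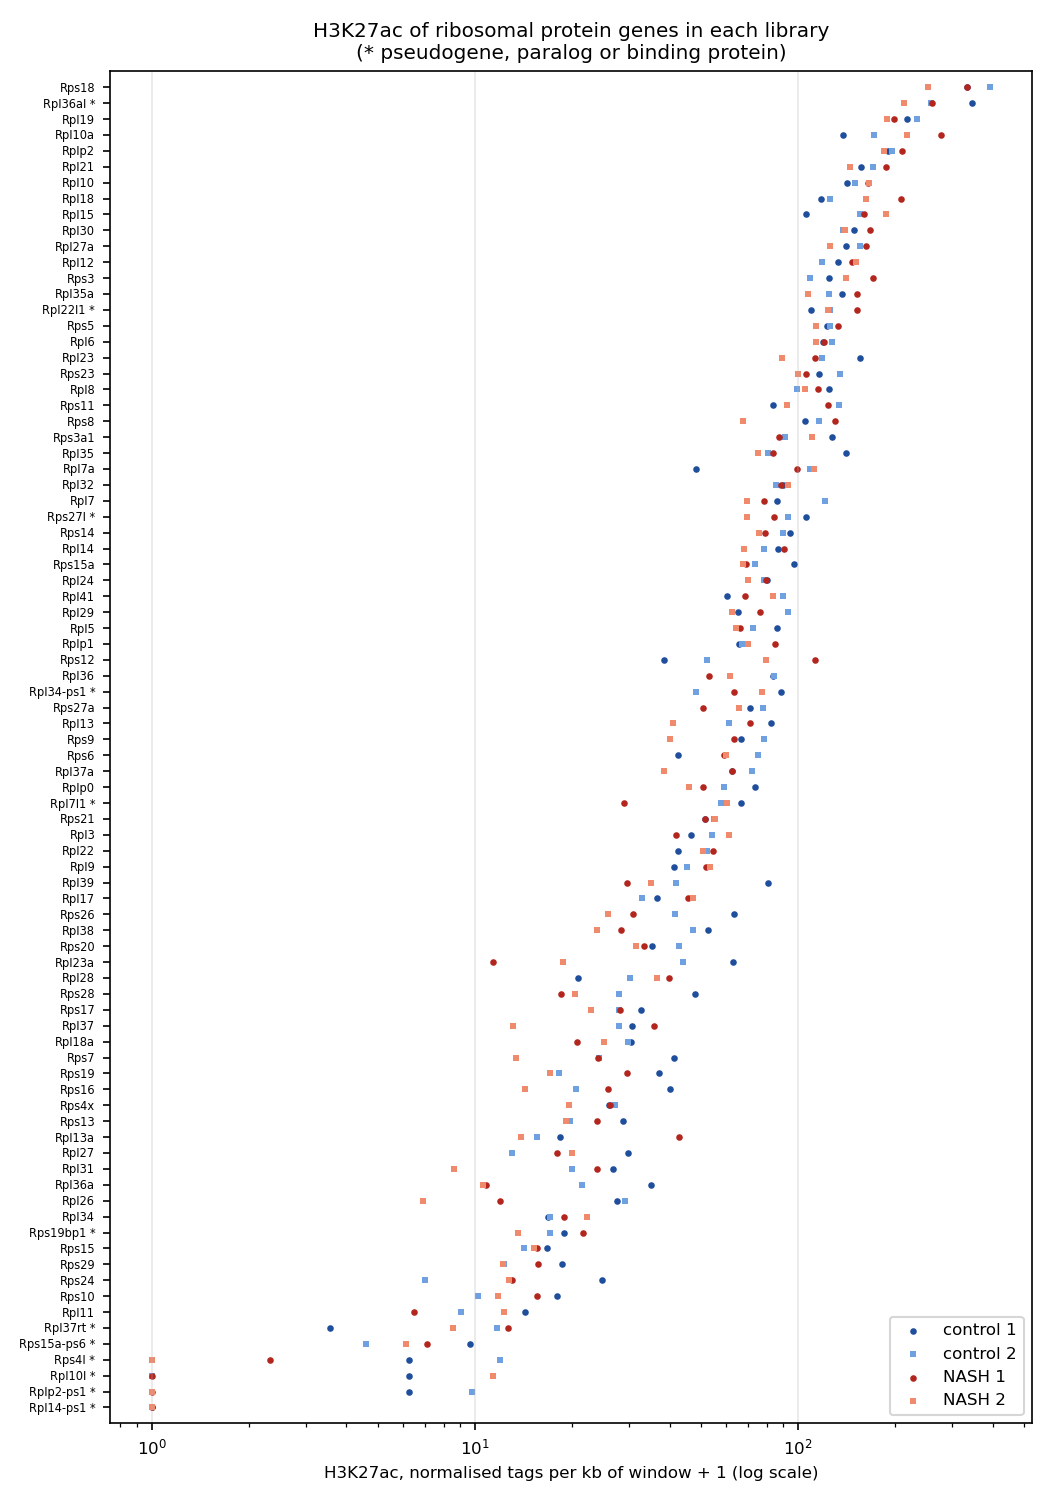
H3K27ac of each of the 84 genes in normalised tags per kb of window plus 1 (log axis), 1 point per library, sorted by the mean of the 4 libraries. The genes spread from Rps18 at a mean of 326 to Rpl14-ps1 at 0 in all 4 libraries, and the blue control and red NASH points overlap in 41 of the 74 genes that passed the filter on low values.

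The 5 genes with the most acetylation per kb were Rps18, Rpl36al, Rpl19, Rpl10a and Rplp2. Rps18 encodes a protein of the small subunit head. In control 1, control 2, NASH 1 and NASH 2 it had 331, 392, 332 and 251 normalised tags per kb, all from 1 window 360 bp downstream of its start (chr17:33955181-33955381). Rpl36al, a paralog of the large subunit gene Rpl36a, had 344, 257, 259 and 211, also from 1 window. Rpl19, a large subunit protein at the bridge between subunits, had 216, 232, 197 and 187. Rpl10a, which forms the mobile L1 stalk of the large subunit, had 136, 171, 277 and 215. Rplp2, an acidic protein of the stalk that recruits translation factors, had 189, 194, 208 and 184. The diets overlapped for Rps18, Rpl36al and Rplp2, both NASH libraries lay below both control libraries for Rpl19, and both lay above for Rpl10a.

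The 5 lowest were Rps15a-ps6, Rps4l, Rpl10l, Rplp2-ps1 and Rpl14-ps1, and none of them is a core gene. Rpl10l, a retrogene active mainly in testis, had 5.27, 0, 0 and 10.3 normalised tags per kb. Rplp2-ps1 had 5.27, 8.81, 0 and 0. Rpl14-ps1 had no tag in any library, which allows up to 3.17, 1.33, 1.60 and 1.56 normalised tags in its 1 window, and these floors cover counting error only. Rps4l had 2.12, 4.42, 0.53 and 0 normalised tags over its 2 windows. Rps15a-ps6 had 5, 5, 7 and 6 tags in control 1, control 2, NASH 1 and NASH 2, low but above the floor of 3 tags. Each of the others had at least 1 library under that floor.

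The promoters of the strongly acetylated genes, and of the 2 genes that come up again in the comparison of the diets, are shown here so that the acetylation can be read beside the sequence. Each runs from 100 bases before to 20 bases after a RefSeq start, 5′ to 3′ on the gene's strand, with coordinates of GRCm38.p6, the build that is also called mm10. Capitals mark matches to the ETS letters CCGGAAG, the SP/KLF letters GGGCGGG, and a run of at least 6 C or T at the start, on either strand for the first 2 and on the gene's strand for the run.
Rps18: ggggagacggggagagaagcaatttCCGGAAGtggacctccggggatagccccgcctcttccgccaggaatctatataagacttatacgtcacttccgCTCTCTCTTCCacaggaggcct
Rpl36al: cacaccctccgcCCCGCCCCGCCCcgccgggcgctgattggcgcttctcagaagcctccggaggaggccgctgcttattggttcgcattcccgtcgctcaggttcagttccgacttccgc
Rpl19: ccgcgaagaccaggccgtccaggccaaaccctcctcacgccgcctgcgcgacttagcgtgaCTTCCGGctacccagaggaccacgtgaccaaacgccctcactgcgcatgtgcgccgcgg
Rpl38: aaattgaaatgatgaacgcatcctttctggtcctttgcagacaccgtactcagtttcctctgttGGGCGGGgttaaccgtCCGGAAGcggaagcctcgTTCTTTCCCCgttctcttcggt
Rpl10a: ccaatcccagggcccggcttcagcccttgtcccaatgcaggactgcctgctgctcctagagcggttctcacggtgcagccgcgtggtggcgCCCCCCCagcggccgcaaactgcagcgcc

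These stretches lie at chr17:33955646-33955765 (minus strand, Rps18), chr12:69184048-69184167 (minus, Rpl36al), chr11:98026610-98026729 (plus, Rpl19), chr11:114668480-114668599 (plus, Rpl38) and chr17:28328371-28328490 (plus, Rpl10a). In Rpl38, the SP/KLF match begins at position -36, the ETS match at -20 and the pyrimidine run at -2, counted from the start at 1 with no 0. Rps18 has its ETS match at -75 and its pyrimidine run at -2. The Rpl19 stretch has an ETS match at -39 on the other strand, and Rpl36al has overlapping SP/KLF matches at -88 and -83. Rpl19 also has a pyrimidine run from -11 to -1, counted from another RefSeq start than that of the stretch. Rpl10a was added to those chosen by rule after its values were seen. The table of promoters had entries for 59 of the 84 genes.

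Acetylation was not spread evenly around the starts of these genes. Windows 150 to 500 bp downstream had a median of 196 normalised tags per kb over 22 windows of 22 genes, with a lowest value of 91.1, and the median over all windows at that distance was 107. Windows within 150 bp of the start had a median of 50.0 over 71 windows of 69 genes, close to the 44.2 of all such windows. Upstream, at -500 to -150 bp, the median was 113 over 19 windows, against 52.3. The downstream median was 199.7, 204, 206 and 184 in control 1, control 2, NASH 1 and NASH 2. The gap to all genes was wide in the windows on either side of the start and narrow at the start, as a description of windows with no test.

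**Figure D2:**
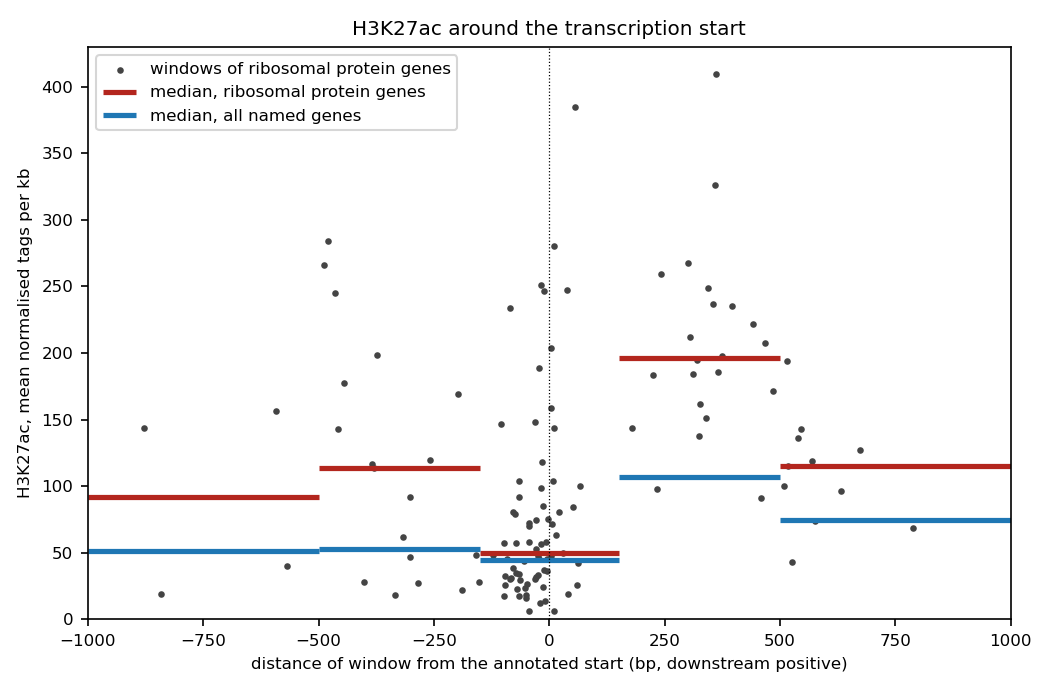
H3K27ac in the windows of ribosomal protein genes (points, mean of 4 libraries, normalised tags per kb) against the distance of the window from the annotated start in bp, with medians over 5 distance ranges for these genes and for all named genes. The red median reaches 196 at 150 to 500 bp downstream, where the blue median of all genes is 107, and the pair of medians lies close together at the start.

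In 18 genes a window at the start and one 150 to 500 bp downstream could be set side by side. The downstream window was the higher one in all 4 libraries in 14 of the 18 (77.8%), against 1406 of 2526 named genes with both windows (55.7%). Rps3, a small subunit protein at the mRNA entry channel that also acts in DNA repair, had 17.6, 18.4, 8.88 and 19.5 normalised tags per kb at its start and 373, 319, 528 and 419 downstream. Rpl5, which with Rpl11 and 5S RNA forms the particle that can bind Mdm2, had 26.01, 4.33, 10.5 and 7.68 at its start and 242, 218, 202 and 186 downstream. Rpl24, a large subunit protein at the subunit interface, had 62.4, 26.2, 28.9 and 51.2 against 242, 224, 247 and 228. Rpl21 and Rpl35a showed the opposite order in all 4 libraries, and in Rplp1 and Rps23 the order differed between libraries.

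Between the diets, few of these genes changed. Of the 84, 74 passed the filter on low values and were tested with all 11593 genes that passed (limma-trend on log2 of the summed normalised tags plus 1, Benjamini-Hochberg adjusted p under 0.05). None was called higher on the NASH diet, where 2.89% of all genes tested were, and 2 were called lower, Rpl38 and Rpl23a, where 11.0% of all genes were. At an unadjusted p under 0.05 the counts were 3 higher and 6 lower, where 5.27% and 23.6% of all genes tested were. The median log2 difference of all genes tested was -0.29, and relative differences below have it subtracted (for single windows, the median of all windows tested, -0.26). Each limma p under the authors' scaling tests the difference before that subtraction, also where the relative difference stands beside it. The TMM, edgeR and DESeq2 fits given below test against a typical gene near 0 (medians of -0.013, -0.012 and -0.0081). The relative median of the 74 was 0.14, and 55 of them (74.3%) lay within 0.5 of the median of all genes, as did 68.9% of all genes tested.

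**Figure D3:**
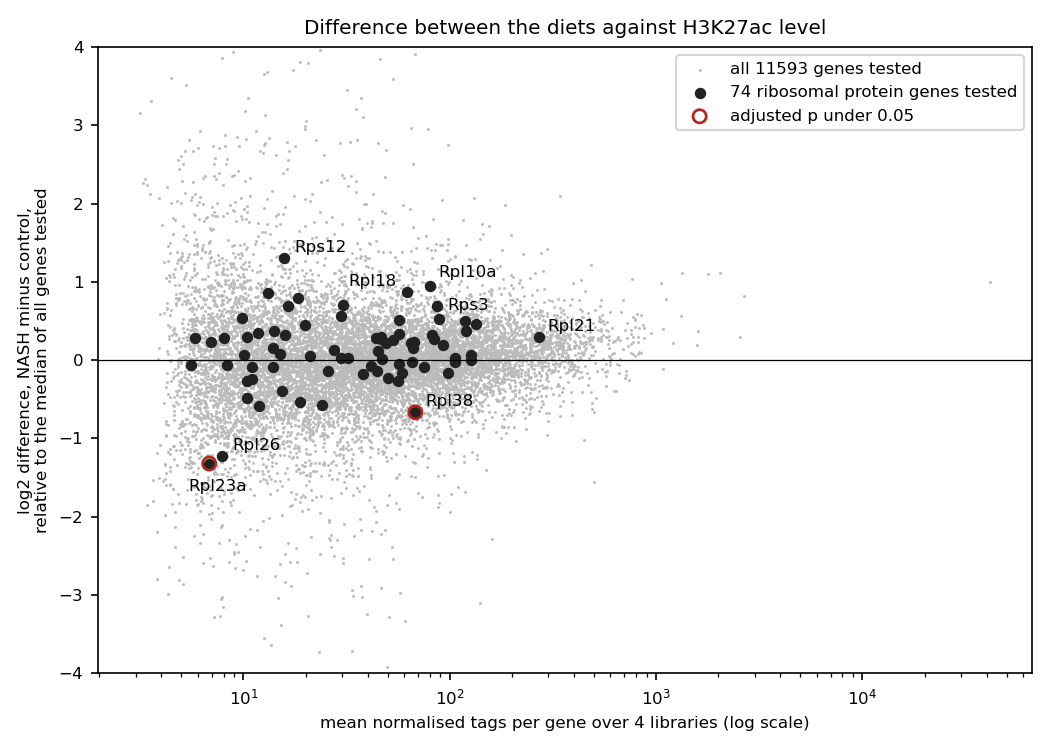
Log2 difference in H3K27ac between the diets (NASH minus control, relative to the median of all genes tested) against the mean normalised tags per gene on a log axis, for the 11593 genes tested (grey; 4 lie outside the plotted range) and the 74 ribosomal protein genes among them (black). Most black points lie near 0; the circled genes Rpl38 and Rpl23a passed the test.

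Of the 74, 12 had both NASH libraries above both control libraries, where 12.0% of all genes tested did, and 21 had both below, where 46.0% did. Scaling by TMM (trimmed mean of M values), which sets the typical gene to no difference, called 4 genes higher (Rpl10a, Rpl18, Rps3 and Rps12) and 1 lower (Rpl38), where 7.06% and 6.18% of all genes were called, and edgeR with TMM also called 4 and 1. DESeq2 called 1 higher and none lower. Over all genes, the 335 higher and 1278 lower calls under the authors' scaling became 819 and 717 under TMM.

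Rpl38, a large subunit protein known for its part in translating Hox mRNAs, had 95.1, 84.9, 50.1 and 42.1 normalised tags in control 1, control 2, NASH 1 and NASH 2. Both NASH libraries lay below both control libraries. The means were 90.0 ± 7.18 and 46.1 ± 5.67 (SD, n = 2 each), a log2 difference of -0.95 (SE 0.23, limma adjusted p = 0.00928) and a relative one of -0.67, and the call held under TMM (limma adjusted p = 0.027). It was lost without NASH replicate 2 (adjusted p = 0.128) and with DESeq2 (adjusted p = 0.171).

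The window that fell at Rpl38 is far from its promoter. Of its 9 windows, the only window called lower was at -99914 bp from the start (chr11:114568529-114568729), at 22.18, 26.97, 6.40 and 2.08 normalised tags (log2 difference -2.42, SE 0.48, limma adjusted p = 0.0054; relative difference -2.16). It was also called under TMM, and it was not called when no filter on low values was used. A neighbouring window (chr11:114568902-114569109) had 19.0, 12.4, 4.80 and 4.68, and was not called (limma adjusted p = 0.053). Both windows lie inside the long non-coding gene Gm31724 (chr11:114517389-114611686) and were given to Rpl38 as the nearest start. Within 1000 bp of the Rpl38 start, the 2 windows, 1 of which overlaps the stretch printed above, gave a log2 difference of -0.34 (limma adjusted p = 0.573), which is -0.04 relative to all genes. The window 325 bp downstream had 32.7, 28.3, 25.1 and 25.0 normalised tags.

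Rpl23a, a protein at the exit of the peptide tunnel, had 12.7, 8.84, 2.13 and 3.64 normalised tags in its 1 window, at the start (chr11:78183507-78183711). These stand for 12, 20, 4 and 7 tags, so the NASH values lie close to the floor of 3. The means were 10.8 ± 2.71 and 2.89 ± 1.07 (SD, n = 2 each), a log2 difference of -1.61 (SE 0.53, limma adjusted p = 0.0481) and a relative one of -1.32. This call did not hold under TMM (adjusted p = 0.0874) or without any one of the libraries (adjusted p from 0.0772 to 0.334). Rpl26, another protein of the tunnel exit, named after its values were seen, came just short of the threshold: it had 11.6, 12.4, 4.80 and 2.60 normalised tags, a relative log2 difference of -1.22 (SE 0.51, limma adjusted p = 0.0518).

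Rpl10a had the smallest adjusted p of the 4 genes called higher under TMM, which were named after their values were seen. Its values were 54.9, 69.0, 111 and 86.8 normalised tags, with both NASH libraries above both control libraries. The log2 difference was 0.67 (SE 0.23, limma adjusted p = 0.0534) under the authors' scaling, 0.95 relative to all genes, and the limma adjusted p under TMM was 0.00184. The larger difference was in the window at the start (chr17:28328381-28328581), which overlaps the Rpl10a stretch above and was called higher: it had 34.9, 38.9, 83.7 and 68.1 normalised tags (log2 difference 1.02, SE 0.25, limma adjusted p = 0.019; relative difference 1.28). This call was lost with no filter on low values and without control replicate 1, NASH replicate 1 or NASH replicate 2, and it held under TMM (limma adjusted p = 0.00516). A window 259 bp upstream had 20.1, 30.1, 27.7 and 18.7, with the diets overlapping.

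Rpl18, Rps12 and Rps3 were not called under the authors' scaling and were called under TMM, by limma and by edgeR. Rpl18, a large subunit protein, had 47.5, 50.9, 84.3 and 65.5 normalised tags (relative log2 difference 0.87, limma adjusted p = 0.112 under the authors' scaling and 0.00626 under TMM), and the difference lay in the window 467 bp downstream of its start. Rps12, a small subunit protein that in flies senses ribosomal protein dosage, had 8.45, 11.5, 25.1 and 17.7 (1.31, 0.100 and 0.0235). Rps3 had 79.2, 69.4, 109 and 89.4 (0.69, 0.211 and 0.0128). In each of the 3, both NASH libraries lay above both control libraries.

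By single windows, 140 of the 236 passed the filter. The call needed an adjusted p under 0.05 and a log2 difference of at least 1, and 1 window was called higher (Rpl10a) and 1 lower (Rpl38), where 2.00% and 4.59% of the 35947 windows tested were. Under TMM the counts were 3 and 1, against 3.32% and 2.51% of all windows. Windows within 1000 bp of a start held 81.5% to 84.6% of the tags of these genes.

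The stalk proteins Rplp0, Rplp1 and Rplp2, which form the platform for elongation factors, passed no test. Rplp0, the scaffold of the stalk, had 126.7, 101.2, 86.9 and 78.5 normalised tags over 8 windows, 6 of them at -16585 bp or farther upstream. Both NASH libraries lay below both control libraries (relative log2 difference -0.17, limma adjusted p = 0.148), while its windows within 1000 bp of the start alone gave a log2 difference of 0.047 (limma adjusted p = 0.949), which is 0.34 relative to all genes. Rplp1 had 108, 110, 140 and 115, with the NASH libraries higher (0.50, limma adjusted p = 0.468). Rplp2 had 80.3, 82.2, 88.5 and 78.0, with the diets overlapping.

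Among proteins of the 5S particle, Rpl5 had 56.0, 46.9, 42.7 and 41.6 normalised tags and Rpl11 had 11.6, 7.07, 4.81 and 9.88. Neither passed the test (limma adjusted p = 0.510 and 0.686). Of the large subunit proteins near the peptidyl transferase centre or with known work outside it, Rpl10, which joins the subunit last, had 123, 129, 142 and 142, with the NASH libraries above the control libraries (relative log2 difference 0.46, limma adjusted p = 0.527). Rpl3, which reaches into the peptidyl transferase centre, had 9.51, 11.1, 8.53 and 12.5. Rpl22, an RNA-binding protein known for a role in T cell development, had 16.9, 20.8, 21.9 and 20.3. Rpl39, which lines the peptide tunnel, had 32.8, 16.8, 11.7 and 14.0, both NASH libraries below (-0.54, limma adjusted p = 0.178). Rpl13a, known for silencing inflammatory mRNAs in activated macrophages, had 4.22, 3.54, 10.1 and 3.12 normalised tags and did not pass the filter, with NASH 1 apart from the other 3 libraries.

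In the small subunit, Rps6, the substrate of S6 kinase, had 8.45, 15.0, 11.7 and 11.96 normalised tags, with the diets overlapping. Rps23, a protein of the decoding centre, had 129, 150, 117 and 111, and Rps14, on the platform of the small subunit, had 118, 112, 98.7 and 94.6. In both genes the NASH libraries were lower, and neither difference passed the test (relative log2 differences 0.0030 and 0.03, limma adjusted p = 0.316 and 0.400). Rps19, mutated in Diamond-Blackfan anaemia, had 22.2, 10.6, 17.6 and 9.88, where the first replicate of each diet was the higher. Rps27a, made as a fusion with ubiquitin, had 44.4, 48.6, 31.5 and 41.1 (-0.07, limma adjusted p = 0.408).

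None of the paralogs, pseudogenes and other genes outside the core that were tested passed the test. Rpl36al had 72.9, 54.4, 54.9 and 44.7 normalised tags. Rpl22l1, the paralog of Rpl22, had 48.6, 55.7, 67.7 and 55.1, which is more than the 16.9 to 21.9 of Rpl22, and per kb 126 against 49.0 as the mean of the 4 libraries. Rps27l, a p53-induced paralog of Rps27, had 89.8, 79.1, 71.5 and 58.8, with both NASH libraries lower (relative log2 difference -0.09, limma adjusted p = 0.277). Rpl7l1 had 13.7, 11.9, 5.87 and 12.5, Rpl34-ps1 17.96, 9.73, 12.8 and 15.6, Rps19bp1 7.40, 6.63, 8.53 and 5.20, Rpl37rt 1.06, 4.42, 4.80 and 3.12, and Rps15a-ps6 5.29, 2.20, 3.73 and 3.12. The 10 genes that did not pass the filter were Rpl13a, Rpl27, Rpl36a and Rps24 of the core, and Rpl37rt, Rps15a-ps6, Rps4l, Rpl10l, Rplp2-ps1 and Rpl14-ps1.

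The lists of sites put LXR and P300 at most of these genes. An LXR site overlapped a window of 72 of the 84 genes on each diet (85.7%), against 77.8% and 78.7% of all named genes on the control and NASH diets. For P300 the counts were 68 (81.0%) and 75 (89.3%), against 57.8% and 79.4%. For ATF3 they were 37 (44.0%) and 50 (59.5%), against 43.7% and 63.6%. The control P300 list showed the widest gap between these genes and all genes, 81.0% against 57.8%, and ATF3 showed the narrowest. There is 1 list per factor and diet, so these shares have no test, and the NASH lists of ATF3 and P300 were longer (38828 against 16109 sites, and 52628 against 25219).

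**Figure D4:**
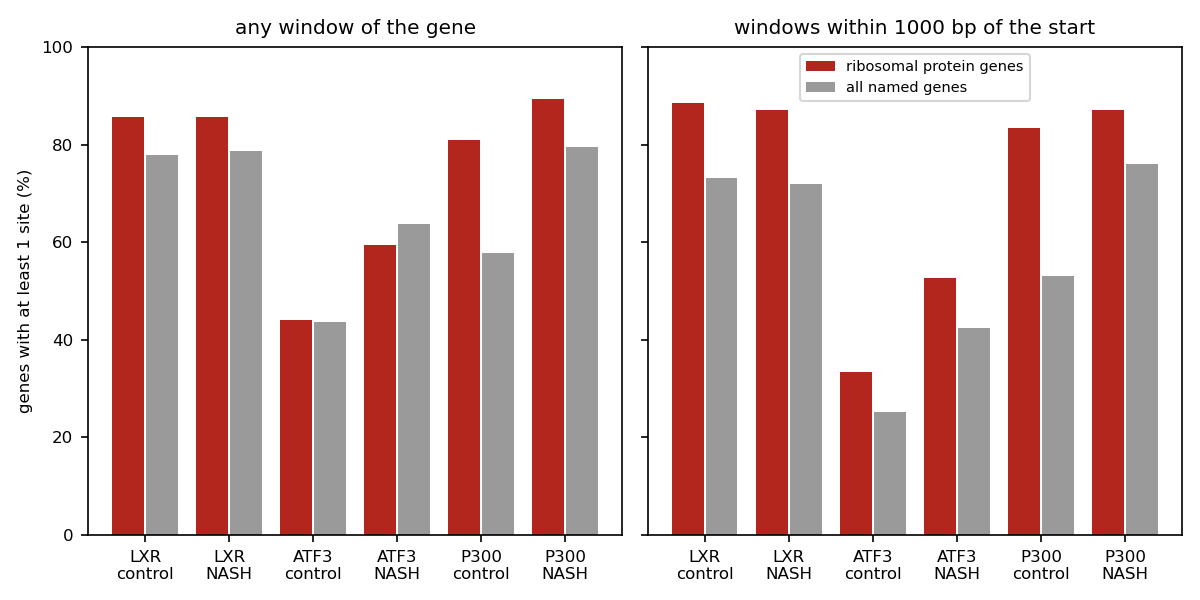
Share of genes (%) with at least 1 site of LXR, ATF3 or P300 in each diet, for ribosomal protein genes (red) and all named genes (grey), over any window of the gene (left) and over windows within 1000 bp of the start (right). P300 on the control diet shows the widest gap, 81.0% against 57.8% on the left and 83.3% against 53.0% on the right.

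Counted within 1000 bp of the start, where 78 of the 84 genes and 11793 of all named genes have a window, the shares were 88.5% and 87.2% for LXR (73.1% and 71.9% of all), 33.3% and 52.6% for ATF3 (25.2% and 42.5%), and 83.3% and 87.2% for P300 (53.0% and 76.1%). Sites were frequent in windows at the start and rare in the acetylated windows downstream of it. Of the 71 windows within 150 bp of the start, 62 overlapped an LXR site on each diet and 62 and 64 a P300 site, while of the 22 windows 150 to 500 bp downstream 0 and 1 overlapped an LXR site, 2 and 1 a P300 site, and 0 an ATF3 site on either diet. Upstream, of the 19 windows at -500 to -150 bp, 9 and 10 overlapped an LXR site, 5 and 10 a P300 site, and 0 and 6 an ATF3 site. Among all named genes, 30.1% and 29.0% of the windows 150 to 500 bp downstream overlapped an LXR site. For P300 the downstream shares of all windows were 19.02% and 31.7%, and for ATF3 6.03% and 12.9%. Within 150 bp of the start they were 70.02% and 68.3% for LXR and 51.5% and 75.02% for P300. Upstream they were 53.8% and 54.5% for LXR, 35.3% and 53.8% for P300, and 17.1% and 32.7% for ATF3. The upstream windows of ribosomal protein genes lay below each of these, at 47.4% and 52.6%, 26.3% and 52.6%, and 0% and 31.6%.

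The authors' enrichment scores placed the P300 sites of these promoters above the middle of their lists. Their median percentile was 68.5 (control) and 78.1 (NASH), against 55.6 and 62.5 for P300 sites at all promoter windows. For LXR the medians were 53.9 and 54.0, against 53.9 and 53.3. Within 1000 bp of a start, the P300 site with the highest score was at Rpl3 (chr15:80083229-80083768), at the 99.6th percentile of the control list, and the Rpl3 site of the NASH list was at 95.7. Within 1000 bp of a start, the highest LXR score was at Rpl24 (chr16:55966197-55966441), at the 95.7th percentile on the control diet and 93.6 on the NASH diet. ATF3 sites at these promoters had the highest IDR score of 1000 in 23.1% (control) and 47.6% (NASH) of cases, against 42.9% and 56.2% at all promoter windows.

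All 3 factors had a site in both diets at 29 of the 84 genes (34.5%), as at 34.6% of all named genes. The 6 of these with the most summed tags were Rpl21, Rpl30, Rplp1, Rps14, Rplp0 and Rpl24. Several of their sites lay far from the gene: 5 of the 7 Rpl21 windows are intergenic, at -3172 bp or farther upstream, and 6 of the 8 Rplp1 windows are intergenic, from 7371 to 243276 bp downstream. At 5 genes the sets of sites differed between the diets for 2 or more factors. Rps3 had an ATF3 site on the control diet only and a P300 site on the NASH diet only. Rps27a and Rpl22 had ATF3 and P300 sites on the NASH diet only, Rpl36a had an LXR site on the NASH diet only and an ATF3 site on the control diet only, and Rps4l had an ATF3 site on the control diet only and a P300 site on the NASH diet only. The Rpl22 ATF3 site of the NASH diet lay at its start, with the highest IDR score of 1000. The Rps3 ATF3 site of the control diet had an IDR score of 739. Both Rps4l sites lay in a window at -31871 bp, with an ATF3 IDR score of 555 and a P300 enrichment percentile of 10.4.

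No site of any list overlapped a window of 6 of the 84 genes (7.14%), against 11.3% of all named genes. The 6 were Rps18, Rpl15, Rpl7a, Rpl34-ps1, Rpl10l and Rpl14-ps1. The single windows of Rps18, Rpl15 and Rpl7a lie 340 to 459 bp downstream of the start, with 326, 151 and 91.1 normalised tags per kb, and the table gives these 3 genes no window at the start. Gains and losses between the diets can be set beside those of all named genes. Of the 47 genes without an ATF3 site on the control diet, 42.6% had one on the NASH diet, against 42.0% of all named genes, and for P300 the shares were 56.3% of 16 genes against 54.5%. Of the 37 genes with an ATF3 site on the control diet, 18.9% had none on the NASH diet, against 8.57% of all. The loss counted within 1000 bp of the start was 26.9% of 26 genes, against 20.0% of all. Within 1000 bp of the start, 42.3% of 52 genes without a control ATF3 site had one on the NASH diet, against 29.8% of all. For LXR over any window, 16.7% of 12 genes gained a site, against 28.6% of all.

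Promoter letters that the rule did not use set these genes apart from the reference as a description. A match to TCGCGAGA, the ZBTB33-type motif, was in 12 of 70 promoter entries (17.1%) of 11 genes, against 2.21% of the entries of genes with a window within 1000 bp and 1.00% of all 32851 entries of 300 bases. The stretches are shown because the ratio of this motif's share to that of genes with a window within 1000 bp was the highest of the 11 motifs searched; the difference in percentage points was larger for the pyrimidine run and for ETS. Capitals mark the match or overlapping matches, on either strand.
Rpl10a: taacgggcaacTCTCGCGAGAacgcgggct
Rpl12: gggccagcggtTCTCGCGAGAgctgagctt
Rpl26: cgctccgagacTCTCGCGAGAtctcgcggc
Rpl27a: cgcctgctaccTCGCGAGActtcgtgagct
Rpl35: ggtgttgctcaTCGCGAGActcagtttccc
Rpl7a: agggcgcctgcTCTCGCGAtatctgcggcc
Rps15a: tgaccatgaagTCTCGCGAtagcgcttccg
Rps19: gcactccgaaaTCTCGCGAGActcgacgcc
Rps28: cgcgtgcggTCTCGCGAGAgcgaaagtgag
Rps3a1: gccagctagtgTCGCGAGAttcttaaagcc
Rps6: gccggctgtTCTCGCGAGAacttagagcgc

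Most of these matches lie shortly before the start: Rpl12 at position -54, Rps6 at -51, Rpl10a at -31, Rpl26 and Rps3a1 at -26, Rpl27a at -21 and Rps19 at -8, with Rpl35 the farthest at -189. The Rpl10a position is counted from another RefSeq start than that of the promoter printed earlier. The stretches were chosen for printing after the shares were seen. Rpl10a, with the window called higher, and Rpl26, just short of the threshold for lower, both carry the motif. The median relative log2 difference was 0.15 over the 11 genes with the motif and 0.10 over the 42 tested of the 48 without it. The median level was 91.1 normalised tags per kb in the 11 and 52.4 in the 48.

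A run of at least 6 C or T touching the 5 bases on either side of the start was in 29 of the 70 entries (41.4%), against 20.2% of the entries of genes with a window within 1000 bp. ETS letters (CCGGAAG) were in 32.9% against 17.5%, YY1 letters (AAGATGGC) in 10.0% against 4.32%, PU.1 letters (GAGGAAG) in 22.9% against 13.5% and CRE letters (TGACGTCA) in 7.14% against 3.28%. Entries of the same gene can overlap and hold the same match. The YY1 matches were in 7 entries of 5 genes and the PU.1 matches in 16 entries of 12 genes, among 59 genes. SP/KLF letters (GGGCGGG) were in 50.0% against 46.7%, NRF1 letters (GCATGCGC) in 4.29% against 5.30%, the nuclear receptor letters AGGTCA in 12.9% against 12.4%, AP-1 letters (TGANTCA) in 2.86% against 5.01%, and TATAAA on the gene's strand in 7.14% against 4.18%. All but TATAAA and the pyrimidine run were searched on both strands, and the ETS and PU.1 letters share their last 5 bases. The shares near the background were those of SP/KLF, NRF1 and AGGTCA.

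**Figure D5:**
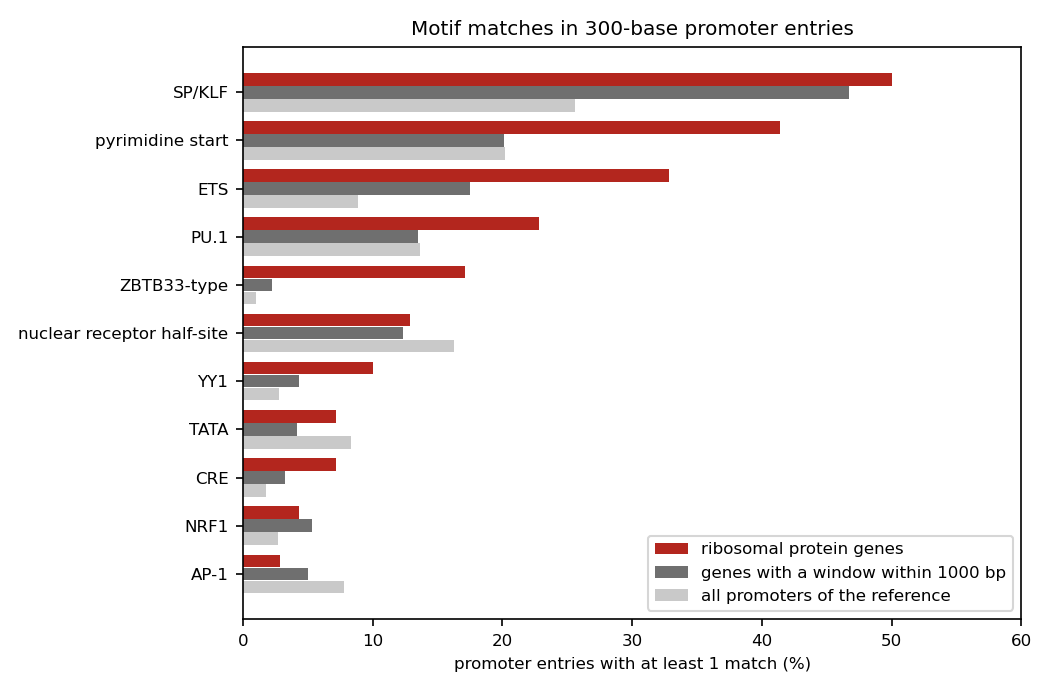
Share of promoter entries (%) with at least 1 match to each motif, for ribosomal protein genes (red), genes with a window within 1000 bp of the start (dark grey) and all entries of the reference (light grey). The ZBTB33-type motif (17.1% against 2.21% and 1.00%) and the pyrimidine run at the start (41.4% against 20.2% in both) stand above both backgrounds.

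Other genes of ribosome production and translation were called at shares near those of all genes tested (2.89% higher and 11.0% lower). Of 57 listed ribosome biogenesis genes, 51 were tested, none was called higher and 4 (7.84%) were called lower (Rrs1, Wdr75, Nmd3 and Myc). Rrs1, which loads the 5S particle onto the large subunit precursor, had 90.8, 88.0, 38.9 and 32.8 normalised tags (log2 difference -1.30, limma adjusted p = 0.00119, and 0.00147 under TMM). Wdr75, a factor for ribosomal RNA synthesis, had 115, 116, 55.0 and 53.0 (-1.08, limma adjusted p = 0.00172, and 0.00508 under TMM). Nmd3, the export adaptor of the large subunit, had 151, 142, 89.6 and 99.8 (-0.63, limma adjusted p = 0.0285), and was not called under TMM (0.219). Of 47 listed translation factors, 46 were tested, none was called higher and 6 (13.0%) were called lower. The 3 with the smallest adjusted p were not called under TMM. Eef1a1, which brings aminoacyl-tRNA to the ribosome, had 403, 437, 308 and 308 (log2 difference -0.45, limma adjusted p = 0.0234, and 0.547 under TMM). Larp1, which binds the pyrimidine start of ribosomal protein mRNAs, had 247, 219, 174 and 147 (-0.54, limma adjusted p = 0.0303, and 0.313 under TMM). Eif3b, a scaffold of initiation factor 3, had 217, 168, 148 and 96.2 (-0.67, limma adjusted p = 0.0308, and 0.150 under TMM). Under TMM the counts were 0 higher and 2 lower in the first list, and 1 higher and 0 lower in the second.

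Other gene families can be set beside these genes, though fewer of their genes were tested. The median relative log2 difference was 0.14 for the 74 ribosomal protein genes tested. For 56 mitochondrial ribosomal protein genes it was -0.11 (1 called higher, 3 lower). It was -0.20 for 34 complex I genes (0 and 1) and 0.13 for 35 proteasome genes (0 and 1). The shares called lower were 5.36%, 2.94% and 2.86% in these 3 families, against 11.0% of all genes tested, and 1.79% of the mitochondrial ribosomal protein genes were called higher, against 2.89%. No difference between these families was tested. A P300 site on the control diet was at 81.0% of the ribosomal protein genes, 80.0% of the proteasome genes, 69.4% of the complex I genes and 58.8% of the mitochondrial ribosomal protein genes. The median level per kb was 59.5, 62.4, 57.6 and 37.8 in that order, against 28.3 for all named genes.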

How the data were processed

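The H3K27ac values are a signal deposited by the authors: tags per window which HOMER set to a total of 10000000 for each library (mm10), per the file headers. Windows (median 204 bp) were reproducible ATAC-seq peaks and were assigned to the nearest start by HOMER, per the file headers. Values times library totals gave whole tags within 0.02 for 100% of values. Bowtie2, HOMER and DESeq2 are named in the submitters' processing notes, without versions, and how reads that match several gene copies were handled was not known here. Site lists carry the authors' IDR score and enrichment score, per the file headers. LXR and P300 lists used an IDR limit of 0.05, while no limit for ATF3 was known here. The header of the control ATF3 list names a pooled set. The unnamed score column of the ATF3 lists was read as the IDR score. The time on the diet may differ between data types, as a window list is named for 20 weeks and the NASH lists of LXR and P300 have headers with a different name.

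The members, lists and comparisons were chosen with earlier results of these data known. Values were summed over the windows of each gene. The test was limma-trend (limma 3.58.1, R 4.3.3) on log2(value + 1) over all genes or windows kept by filterByExpr of edgeR 4.0.16 on the recovered tags, so fold changes of low genes are understated. Tests had 2 libraries per diet and Benjamini-Hochberg adjustment over all features. Alternatives were TMM scaling, edgeR, DESeq2 1.42.0, no filter, a pseudocount of 5, windows within 1000 bp only, a replicate block and leaving out each library. Added after seeing the data were the core genes only, TMM on windows within 1000 bp, and edgeR on windows. The test was tried on simulated data first. Sites overlapped windows by at least 1 bp. Promoters of 300 bases came from RefSeq (GRCm38.p6). Genes named were those called, the 5 highest and 5 lowest per kb, members of fixed role lists, every paralog, pseudogene or other gene, the 6 most acetylated with all sites, and those whose sites differed between the diets. The input samples (10) and the peritoneal library (1) were not analysed here, and the 12 windows without a gene name held 0.0580% to 0.132% of tags in windows. Tags without molecular identifiers are not independent molecules, so floors cover counting error only.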

Additional observations from a re-analysis of the deposited data

How the results depend on the processing

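Against 0 genes called higher and 2 lower under the authors' scaling, TMM and edgeR each gave 4 higher and 1 lower, DESeq2 gave 1 and 0, and the fit with no filter on low values gave 0 and 1. Windows within 1000 bp alone gave 0 higher and 0 lower, and with TMM, added after seeing the data, 2 and 0. Leaving out each library gave 0 to 2 higher and 0 to 3 lower. For single windows, 1 higher and 1 lower became 3 and 1 under TMM and edgeR (the latter added after seeing the data), 0 and 0 with no filter, and 0 to 1 and 1 to 3 without each library.

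The replicate block gave 3 genes higher and 4 lower, and 4 windows lower. Shares of all genes and of all windows called are given above only for the authors' scaling and for TMM. Counts from the other fits, windows within 1000 bp included, have no such share beside them and cannot be read as particular to these genes. The replicate numbers are only a shared number: the correlation of same-numbered deviations across genes was 0.03.

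The median log2 difference of these genes, -0.14 under the authors' scaling, was 0.13 under TMM, 0.16 with edgeR, 0.16 with DESeq2, -0.069 in windows within 1000 bp and 0.21 there with TMM, and ran from -0.25 to -0.018 without each library. Relative to all genes it lay between 0.09 and 0.23 in all of these. At an IDR score of 1000 the control ATF3 list touched 13 of these genes instead of 37. Of all sites of that list, 58.0% had this score. The share of all named genes touched at that score is not given here. The causes were not tested. Depth limits the low genes, as 3 tags in control 1 equal 3.17 normalised tags.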
